A study of Mus musculus with 8 samples.

Results

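The DNA replication and S phase genes were 42 genes that prepare, start and carry out the copying of the genome. They were followed in nephron progenitors of the embryonic mouse kidney with and without floxed alleles of the histone deacetylases Hdac1 and Hdac2. A gene was represented by the probe with the highest mean Cy5 signal among those whose RefSeq accession maps to its symbol. This gave values for 41 of the 42 genes, among 22662 genes tested on the array in all. The exception was Ccne2, a cyclin E gene whose only probe was not well above background on any array. Each of the other 41 exceeded background in Cy5 on all 8 arrays and was saturated on none.

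RNA came from EGFP+ cells of embryonic day 15.5 kidneys of C57BL/6 mice, sorted for the fluorescent protein that the Six2CreEGFP transgene expresses. Both groups carried this transgene, which drives Cre under Six2 regulation in progenitors of the cap mesenchyme. The 4 wildtype pools had the HDAC1&2 +/+ genotype and the 4 mutant pools HDAC1&2 f/f, so the deletion in the mutant depended on Cre acting in the cells that were sorted. Each pool was hybridised in Cy5 to 1 array of a two-colour design, with wildtype pool 1 RNA as the common Cy3 reference. The labels do not state whether pools share animals, and p-values therefore measure only the spread between these samples.

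Replication of a genome begins in G1, when the origin recognition complex, Cdc6 and Cdt1 load the ring-shaped MCM helicase onto DNA. At the entry to S phase, kinases such as that of cyclin E activate the helicase through Cdc45 and the GINS complex, and polymerases held by the Pcna clamp copy both strands. Transcription of many of these genes is driven by E2F factors, which are restrained in G1 by retinoblastoma proteins that can recruit histone deacetylases such as HDAC1 to promoters. Nephron progenitors divide to maintain their pool while part of them are induced to form nephrons.

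The number of probes well above background in Cy5 (by the scanner software's flag) was 28150 to 33982 of 55681 on 7 arrays and 48627 on the array of wildtype pool 2. Different probes of one gene scattered more on the array of mutant pool 1, with a median SD of 0.245 (log2, 3916 genes) against 0.0826 to 0.142 on the other 7. In both groups pools 3 and 4 were as close as repeats of the Cy3 reference, and they were averaged to 1 sample, which left 3 wildtype and 3 mutant samples. Hdac1 read lower in the mutant of all 3 pairs at each of its 3 probes, with log2 differences of -0.30, -0.40 and -0.57, and Hdac2 differed by -0.13 at its 1 probe. None of these passed the test. The probes were not placed against the floxed exons, so they do not check the deletion. All 10 nephron progenitor markers tested were measured. Cited1, a marker of the least committed progenitors, fell by 2.72 (limma adjusted p = 0.00279), and the other 9 did not pass.

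The promoters of the replication genes were examined for the words that E2F factors bind. A RefSeq table (assembly GRCm38.p6) holds 300 bases around the annotated start of 35 of the 42 genes. It lists more than 1 start for Mcm7, Fen1 and Lig1, and only the first listed start of any gene was searched. These bases were searched on both strands for TTTCCCGC, TTTCGCGC, TTTGCCGC and TTTGGCGC. At least 1 of the 4 words stood in 11 of 35 promoters (31.4%), beside 626 of 27025 in the whole table (2.32%). These were the promoters of Orc1, Cdc6, Cdt1, Mcm3, Mcm5, Mcm6, Mcm7, Gins3, Rfc3, Pola1 and Pold1. The stretches below are the 150 bases before the start of 3 of them, shown because they stand for the helicase, its activator and the clamp loader described next. Capitals mark the E2F words, which overlap at one place in Mcm6.
Mcm6 promoter (chr1:128359706-128359855, minus strand): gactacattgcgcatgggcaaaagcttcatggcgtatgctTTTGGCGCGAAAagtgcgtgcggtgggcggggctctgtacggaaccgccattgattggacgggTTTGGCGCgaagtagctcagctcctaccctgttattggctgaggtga
Gins3 promoter (chr8:95633409-95633558, plus strand): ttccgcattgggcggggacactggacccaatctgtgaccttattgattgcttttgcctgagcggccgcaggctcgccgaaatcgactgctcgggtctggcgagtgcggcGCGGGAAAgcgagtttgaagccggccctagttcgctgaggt
Rfc3 promoter (chr5:151651209-151651358, minus strand): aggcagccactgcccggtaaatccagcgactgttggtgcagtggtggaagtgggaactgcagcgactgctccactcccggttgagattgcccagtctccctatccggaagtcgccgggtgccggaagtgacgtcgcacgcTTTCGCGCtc
Mcm6 holds E2F words in 2 separate stretches, and the other two hold 1 word each in the printed bases. A match describes the sequence only and does not show binding.

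The CCAAT word, bound by NF-Y, stood in 21 of 35 replication promoters (60%) and in 37.9% of the table. TTTGAA, a core of the element that delays transcription to G2, stood in 4 of 35 (11.4%) and in 18.1% of the table. In a list of 68 other replication genes an E2F word stood in 18 of 54 promoters (33.3%), CCAAT in 25 (46.3%) and TTTGAA in 9 (16.7%), so the E2F share was close to that of the replication genes above. A separate list of mitotic (G2/M) genes was searched in the same way. Of 32 such promoters, 1 held an E2F word (3.12%), 25 held CCAAT (78.1%) and 22 held TTTGAA (68.8%).

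The comparison of mutant with wildtype cells asked whether transcripts of the replication machinery changed when Hdac1 and Hdac2 were targeted. No replication gene passed the test: 0 of 41 had an adjusted p under 0.05 in limma, a linear model whose gene variances borrow from all genes, where 10 of 22662 genes did (0.0441%). At an unadjusted p under 0.05 the count was also 0 of 41, beside 7.24% of all genes (4.46% higher and 2.78% lower in the mutant). Differences ran from -0.35 (Gins2) to 0.31 (E2f1) on the log2 scale, mutant minus wildtype, with a median of -0.05, against 0.0017 over all genes. The mutant mean was lower for 27 genes and higher for 14, where 49.5% of all genes had the lower and 50.5% the higher mutant mean. Centring on spike-in controls, which moved the median of all genes to -0.15, gave 4 higher and 37 lower, and Cy5 alone, which moved it to 0.128, gave 22 higher and 19 lower. Across 26 alternative settings 11 genes kept 1 sign, with Cdc6, Chaf1b, Ccne1 and E2f1 above 0 and Mcm6, Mcm7, Mcm10, Rfc5, Prim1, Rrm1 and Dut below it. Settings that altered only the gene variances or the filter left these differences as they were, so they could not change a sign. The other settings reused the same arrays, and the share of all genes that kept 1 sign was not computed. For 33 of 41 (80.5%) the 95% interval of the difference lay within 1.5-fold either way, as it did for 72.4% of all genes. The 8 wider intervals were those of Cdc45, Gins2, Pcna, Rfc3, Rpa3, Pola2, Chaf1a and E2f1. In pooled RNA, fewer cells in S phase and less RNA per cell cannot be told apart.

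**Figure D1:**
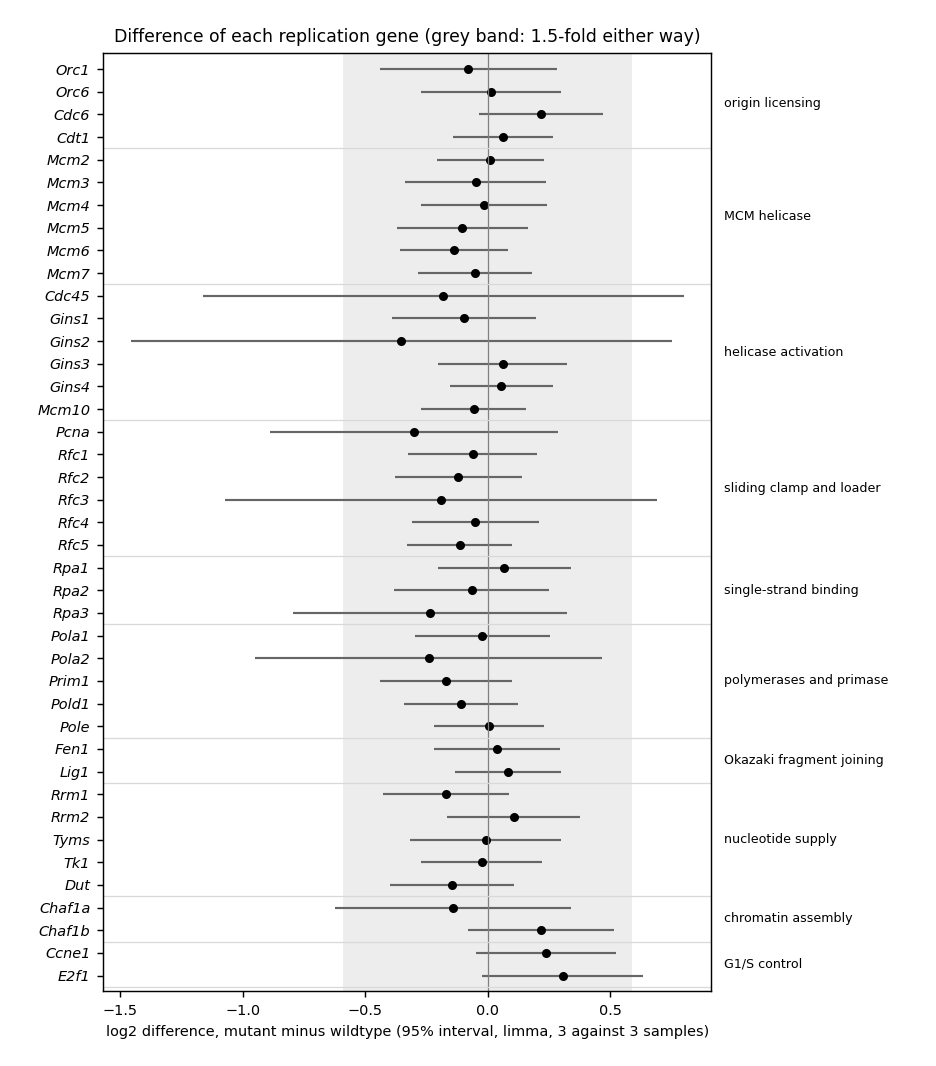
Log2 difference, mutant minus wildtype, of 41 replication genes ordered by role (points), with the 95% interval of the limma fit over 3 wildtype and 3 mutant samples (lines). The grey band is a 1.5-fold difference either way, and 33 of the 41 intervals lie within it.

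Same-numbered wildtype and mutant pools deviated from their group means together, so differences were also taken within pairs (pool 1, pool 2, and pools 3 and 4 averaged). With the pair as a block the limma fit called 0 of 41 replication genes, beside 0.15% of all genes. At an unadjusted p under 0.05 the blocked fit gave 3 higher genes, E2f1, Ccne1 and Chaf1b, a share near the 7.77% of all genes, and 0 lower genes, beside 4.88%. The lowest adjusted p of a replication gene in the blocked fit was 0.344. In all 3 pairs 6 genes were higher in the mutant (Cdc6, Cdt1, Rrm2, Chaf1b, Ccne1 and E2f1) and 8 were lower (Mcm6, Mcm10, Pcna, Rfc5, Prim1, Pold1, Rrm1 and Dut). Over all genes these shares were 22.6% and 17.1%.

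The pairs did not read alike. The median difference of the 41 genes was -0.19 in the pool 1 pair, 0.04 in the pool 2 pair and 0.03 in the pair of pools 3 and 4. Over all genes the medians were -0.02, 0.05 and 0.0040. The SD between the 41 genes was 0.356 in the pool 1 pair, 0.133 in the pool 2 pair and 0.110 in the third. All genes were also spread most widely in the pool 1 pair, where their 95% quantile was 0.53, against 0.42 and 0.30. In the pool 1 pair 6 genes (14.6%) were under -0.5, which were Gins2, Rfc3, Rpa3, Cdc45, Pola2 and Pcna, where 11.9% of all genes were. In the other pairs no replication gene was under -0.5, beside 2.89% and 2.19% of all genes. Without the mutant pool 1 array the median of the 41 genes was 0.04 and 17 of them changed sign. That setting, also used below, kept wildtype pool 1, so its samples were no longer matched by number. Without the whole pool 1 pair the blocked fit gave a median of 0.03, beside 0.026 over all genes. There 16 of the 41 genes changed sign.

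**Figure D2:**
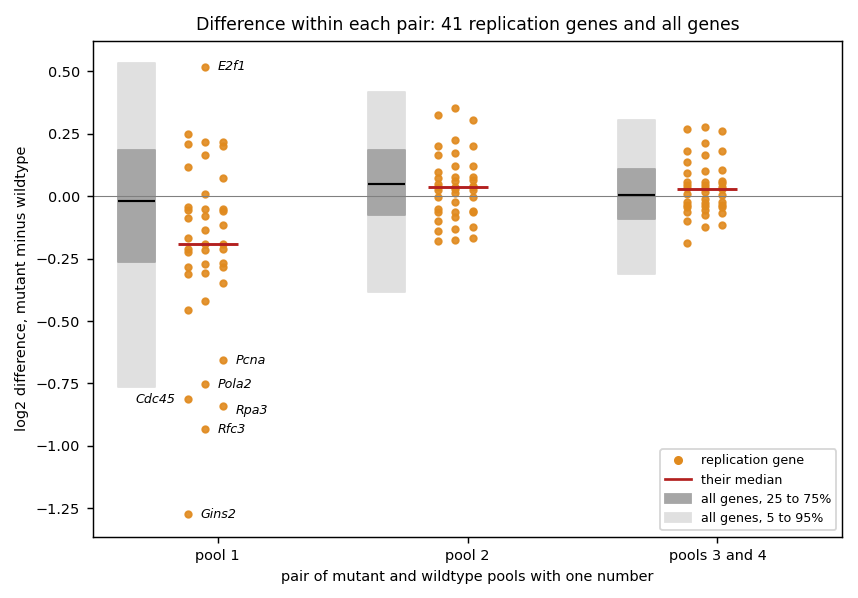
Log2 difference, mutant minus wildtype, within each pair of pools, for the 41 replication genes (orange points, spread sideways for legibility, red line at their median) and for all 22662 genes (grey bars, black line at the median). The 6 lowest genes, all in the pool 1 pair, are named, as is E2f1, the highest there.

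The G1/S regulators had the highest differences. Values per array are log2 ratios of Cy5 over the Cy3 reference. E2f1, a transcription factor that drives S phase genes, read -0.009, -0.01, -0.16 and -0.22 on the arrays of wildtype pools 1, 2, 3 and 4, and 0.51, 0.11, 0.12 and 0.06 on those of the mutant pools in the same order. Every mutant array lay above every wildtype array, and the mutant array of pool 1 stood highest. The difference was 0.31 ± 0.14 (SE, n = 3, limma adjusted p = 0.731), with a 95% interval of -0.02 to 0.64, and the blocked adjusted p from limma was 0.350. Within the pairs it was 0.52, 0.12 and 0.28. Without mutant pool 1 it was 0.17. E2f1 was the only replication gene whose groups did not overlap with the mutant higher, beside 8.6% of all genes. Ccne1, the cyclin E that activates the kinase of S phase entry, read 0.13, 0.21, -0.08 and -0.10 on the wildtype arrays and 0.38, 0.41, 0.17 and 0.19 on the mutant arrays, each in the order of pools 1 to 4. The arrays overlapped between groups, but each mutant array was above the wildtype array of its number, and the pair differences of 0.25, 0.20 and 0.27 were close to each other. The difference was 0.24 ± 0.12 (SE, n = 3, limma adjusted p = 0.754).

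In origin licensing 3 of 4 genes had a higher mutant mean, and the differences ran from -0.08 (Orc1) to 0.22 (Cdc6). Cdc6, which loads the MCM ring together with Cdt1, read 0.12, 0.05, 0.0081 and 0.03 on the wildtype arrays and 0.32, 0.41, 0.13 and 0.11 on the mutant arrays. Mutant pools 1 and 2 stood above all wildtype pools, while mutant pools 3 and 4 were near wildtype pool 1. It differed by 0.22 ± 0.11 (SE, n = 3, limma adjusted p = 0.753), in pairs by 0.20, 0.35 and 0.10. Cdt1 read -0.04, -0.0025, 0.0031 and -0.12 on the wildtype arrays and 0.08, 0.01, -0.02 and 0.01 on the mutant arrays. These values overlapped, and the difference of 0.06 ± 0.09 (SE, n = 3, limma adjusted p = 0.871) had a 95% interval of -0.14 to 0.27. Orc1 and Orc6, subunits of the origin recognition complex, were lower in the mutant of pool 1 (-0.42 and -0.23) and higher in that of pool 2 (0.23 and 0.16).

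The 6 genes of the MCM helicase, Mcm2 to Mcm7, stayed within narrow limits. Their differences ran from -0.14 to 0.01, 5 of 6 mutant means were lower (3 without mutant pool 1, where Mcm3 and Mcm4 were above 0), and all 6 intervals lay within 1.5-fold. Mcm6 had the largest difference among them and read 0.03, 0.08, -0.06 and -0.06 on the wildtype arrays and -0.18, -0.06, -0.15 and -0.10 on the mutant arrays. Wildtype pools 3 and 4 lay among the mutant arrays, and wildtype pools 1 and 2 lay above all of them. The difference was -0.14 ± 0.09 (SE, n = 3, limma adjusted p = 0.81), lower in all 3 pairs (-0.21, -0.14 and -0.06). Mcm2 read 0.03, -0.0074, -0.17 and -0.07 on the wildtype arrays and -0.03, 0.03, -0.07 and -0.05 on the mutant arrays. Its groups overlapped, with a difference of 0.01 ± 0.09 (SE, n = 3, limma adjusted p = 0.983) and a 95% interval of -0.21 to 0.23.

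Cdc45 and the GINS subunits turn the loaded ring into a moving helicase. Of the replication genes, Gins2 and Cdc45 held the most scattered values, while Gins1, Gins3 and Gins4 scattered less. Gins2 read -0.20, 0.33, 0.02 and 0.08 on the wildtype arrays and -1.47, 0.37, 0.19 and 0.27 on the mutant arrays. The mutant pool 1 array stood alone below all others, and the other 3 mutant arrays lay within or just above the range of the wildtype arrays. The difference was -0.35 ± 0.47 (SE, n = 3, limma adjusted p = 0.865) with a 95% interval of -1.46 to 0.75, and it was 0.24 without mutant pool 1. By pair it was -1.27, 0.04 and 0.18. Cdc45 had the same form. It read -0.11, 0.43, 0.60 and 0.30 on the wildtype arrays and -0.92, 0.76, 0.50 and 0.29 on the mutant arrays, and its difference moved from -0.18 to 0.32 without mutant pool 1. The pair differences of Cdc45 were -0.81, 0.32 and -0.05. Gins3, whose promoter is printed above, read -0.03, -0.13, -0.05 and -0.05 on the wildtype arrays and 0.18, -0.13, -0.09 and -0.06 on the mutant arrays, a difference of 0.06 ± 0.11 (SE, n = 3, limma adjusted p = 0.902). Gins1, Gins4 and Mcm10 differed by -0.10, 0.06 and -0.06.

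The clamp and its loader were lower in the mutant mean for 6 of 6 genes, from -0.30 (Pcna) to -0.05 (Rfc4), with 0 passing the test. Without mutant pool 1 the differences of Rfc1, Rfc3 and Rfc4 were above 0. Pcna, the ring that holds polymerases on DNA, read -0.17, 0.21, 0.04 and 0.10 on the wildtype arrays and -0.83, 0.15, -0.16 and -0.08 on the mutant arrays. Mutant pool 1 stood lowest, and the remaining mutant arrays overlapped the wildtype ones. Pcna differed by -0.30 ± 0.25 (SE, n = 3, limma adjusted p = 0.819), in pairs by -0.66, -0.06 and -0.19, and by -0.02 without mutant pool 1. The last value still included wildtype pool 1, the lowest wildtype array, whereas the pool 2 pair and the third pair were both below 0. Rfc3, a subunit of the clamp loader, was -1.003 on the mutant pool 1 array and between 0.31 and 0.49 on the other mutant arrays, against -0.07 to 0.29 on wildtype arrays. Its difference of -0.19 became 0.28 without mutant pool 1, and its pair differences were -0.93, 0.20 and 0.16. Rfc5, another loader subunit, was the only replication gene whose groups did not overlap with the mutant lower, beside 5.86% of all genes. It differed by -0.11 ± 0.09 (SE, n = 3, limma adjusted p = 0.819).

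The RPA subunits, which coat single-stranded DNA behind the helicase, differed by 0.07 (Rpa1), -0.07 (Rpa2) and -0.24 (Rpa3). Rpa3 read -0.0068, -0.03, -0.06 and -0.02 on the wildtype arrays and -0.85, 0.07, -0.06 and 0.04 on the mutant arrays. Apart from mutant pool 1 its 7 arrays lay between -0.06 and 0.07, and the difference was -0.24 ± 0.24 (SE, n = 3, limma adjusted p = 0.836) with all samples and 0.06 without mutant pool 1. Rpa1 read 0.01, 0.13, -0.11 and -0.09 on the wildtype arrays and -0.08, 0.21, 0.10 and 0.14 on the mutant arrays. It was lower in the mutant of the pool 1 pair and higher in both other pairs (-0.09, 0.08 and 0.21), with a difference of 0.07 ± 0.11 (SE, n = 3, limma adjusted p = 0.895).

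Among the polymerase and primase genes 4 of 5 mutant means were lower, and those of Pola1 and Pola2 were higher without mutant pool 1. Pola2, the regulatory subunit of the polymerase that starts each new strand, read -0.13, 0.24, 0.08 and 0.24 on the wildtype arrays and -0.88, 0.27, 0.15 and 0.18 on the mutant arrays. Mutant pool 1 lay far below the wildtype arrays and the other mutant arrays near or within their range, and without it the difference moved from -0.24 ± 0.30 (SE, n = 3, limma adjusted p = 0.858) to 0.13. By pair Pola2 differed by -0.75, 0.02 and 0.0079. Pold1, the catalytic subunit of the lagging-strand polymerase, read -0.07, 0.13, -0.05 and 0.05 on the wildtype arrays and -0.15, -0.05, -0.09 and -0.06 on the mutant arrays. Its mutant arrays overlapped wildtype pools 1 and 3, and it differed by -0.11 ± 0.10 (SE, n = 3, limma adjusted p = 0.824), lower in all 3 pairs. Prim1, the primase, differed by -0.17 and was also lower in all 3 pairs. Pola1 and Pole, catalytic subunits of the initiating and the leading-strand polymerase, differed by -0.02 and 0.0064.

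Okazaki fragment joining was represented by Fen1, the nuclease that trims the fragments, and Lig1, the ligase that seals them. Lig1 read -0.18, -0.09, -0.26 and -0.24 on the wildtype arrays and -0.11, -0.09, -0.10 and -0.04 on the mutant arrays. Mutant values lay at the upper end of the wildtype range, with mutant pool 4 above it, and the difference was 0.08 ± 0.09 (SE, n = 3, limma adjusted p = 0.842). Fen1 differed by 0.04.

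The genes of nucleotide supply differed from -0.17 (Rrm1) to 0.11 (Rrm2), and all 5 intervals lay within 1.5-fold. Rrm2, the regulated subunit of ribonucleotide reductase, read -0.05, -0.0086, -0.20 and -0.16 on the wildtype arrays and 0.17, 0.05, -0.16 and -0.12 on the mutant arrays. The groups overlapped, and the difference was 0.11 ± 0.11 (SE, n = 3, limma adjusted p = 0.841), higher in all 3 pairs. Rrm1, its partner subunit, read -0.17, 0.02, -0.19 and -0.15 on the wildtype arrays and -0.39, -0.15, -0.34 and -0.25 on the mutant arrays, a difference of -0.17 ± 0.11 (SE, n = 3, limma adjusted p = 0.803), lower in all 3 pairs. The 2 subunits of one enzyme thus had pair differences of opposite sign, 0.22, 0.06 and 0.04 for Rrm2 and -0.22, -0.17 and -0.12 for Rrm1, and neither passed the test. Dut, which removes dUTP, differed by -0.14, and Tyms and Tk1, which make thymidine nucleotides, by -0.0085 and -0.02.

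Chromatin assembly factor 1 deposits histones on new DNA, and its 2 measured subunits lay on opposite sides. Chaf1b read -0.15, 0.14, -0.17 and -0.16 on the wildtype arrays and 0.07, 0.31, 0.11 and 0.09 on the mutant arrays. Each mutant array was above the wildtype array of its number, although wildtype pool 2 overlapped the mutant range. It differed by 0.22 ± 0.13 (SE, n = 3, limma adjusted p = 0.786), with pair differences of 0.22, 0.17 and 0.26. Chaf1a differed by -0.14 with all samples and by 0.07 without mutant pool 1, and in pairs by -0.45, -0.06 and 0.09.

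**Figure D3:**
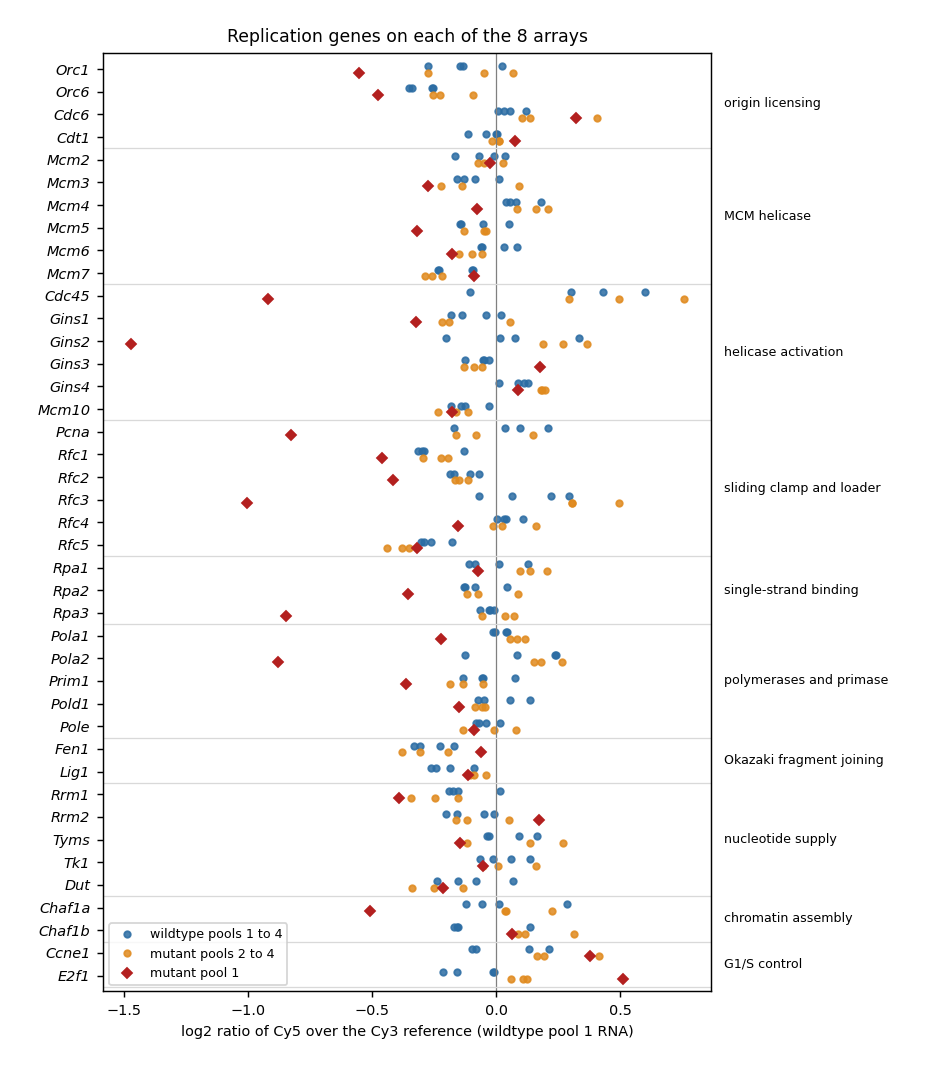
Log2 ratio of Cy5 over the Cy3 reference for 41 replication genes, by role, on each array: wildtype pools (blue), mutant pools 2 to 4 (orange) and mutant pool 1 (red diamonds). The points left of -0.8 are all from mutant pool 1, and mutant pool 1 is also the highest point of E2f1.

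The low values of mutant pool 1 were read in each dye. On that array 6 genes (Gins2, Rfc3, Rpa3, Cdc45, Pola2 and Pcna) had Cy3 levels within -0.13 to 0.15 of their median over the arrays (log2, after removing the array's overall shift). Their Cy5 levels were -1.65 to -0.70 from that median, so the reference RNA read as on other arrays and the sample RNA read lower. Gins3 differed from this pattern. Both its dyes were low there, by -2.89 in Cy3 and -2.69 in Cy5, and their ratio was 0.18, so that Cy5 taken alone gave a difference of -0.79 for this gene. The spread between probes of one gene, given above, was also largest on this array. Added spike-in controls stood apart on it too. Their log2 ratio, less its mean over the arrays, was 0.46 on it and -0.16 to 0.11 on the other 7. The part of the probe spread and of the spike-in shift in the result was not tested.

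**Figure D4:**
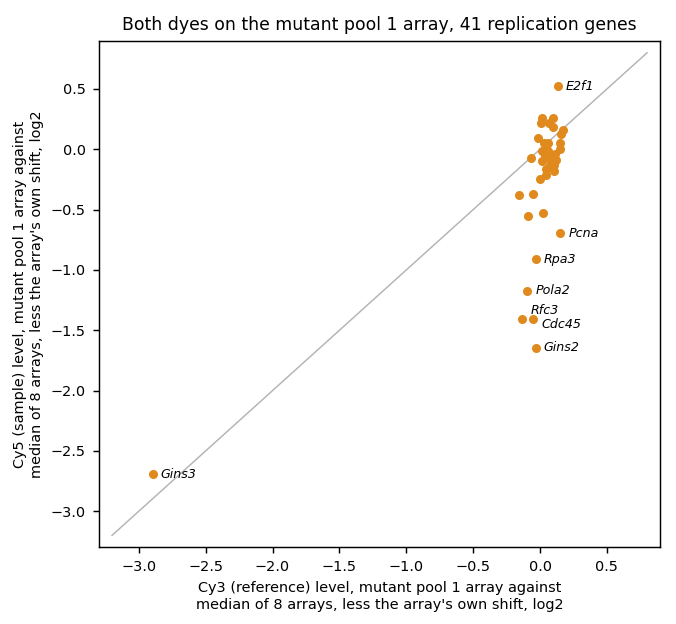
Level of 41 replication genes on the mutant pool 1 array against the median of all 8 arrays, in Cy3 (reference, horizontal) and in Cy5 (sample, vertical), log2, after subtracting the array's median shift in each dye. The 6 genes from Pcna down to Gins2 are low in Cy5 only, and Gins3 is low in both dyes.

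The array of wildtype pool 1 carried one RNA in both dyes, so its ratios hold no difference in RNA. It was also the array on which probes of one gene scattered least, at 0.0826. The 41 genes read -0.29 (Rfc1) to 0.16 (Tyms) there, with a median of -0.05 and an SD of 0.111. On the arrays of separate pools the SD between the genes was 0.394 for mutant pool 1 and 0.149 to 0.221 for the other 6.

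A second probe well above background on all 8 arrays existed for Cdc6, Rfc4, Chaf1b and Ccne1. The second probe of Chaf1b differed by 0.32 ± 0.11 (SE, n = 3, limma adjusted p = 0.660 over all kept probes), against 0.22 at the brighter probe. It was higher in the mutant of all 3 pairs, as were 22.6% of all genes. Its groups did not overlap, as for 8.6% of all genes with the mutant higher. For Ccne1 the second probe gave 0.28 ± 0.28 (SE, n = 3, limma adjusted p = 0.878 over all kept probes), with pair differences of 0.07, 0.47 and 0.29. For Cdc6 it gave 0.09 (limma adjusted p = 0.881 over all kept probes), with pair differences of -0.04, 0.26 and 0.05. For Rfc4 it gave -0.20 (limma adjusted p = 0.873 over all kept probes), against -0.05 at the brighter one. On the mutant pool 1 array the gap between the probes departed from its mean over the other arrays by 0.728 for Ccne1, 0.31 for Cdc6, -0.337 for Chaf1b and 0.243 for Rfc4. The largest departure on another array was 0.55, 0.103, 0.088 and 0.0937 for these genes in turn. Ccne1, Chaf1b and Cdc6 were above wildtype at both probes by the mean, and Rfc4 was below it at both.

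**Figure D5:**
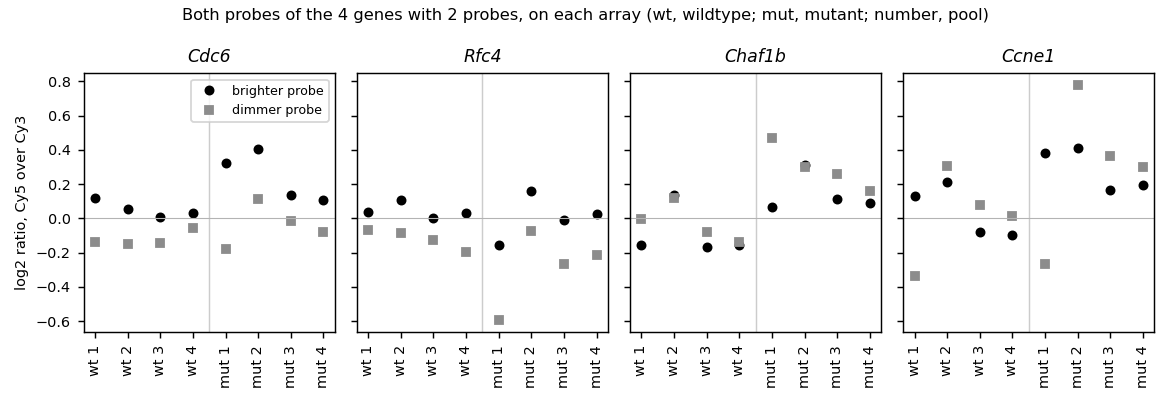
Log2 ratio of Cy5 over Cy3 at the brighter (black circles) and the dimmer probe (grey squares) of Cdc6, Rfc4, Chaf1b and Ccne1, on the arrays of wildtype (wt) and mutant (mut) pools 1 to 4. The probes lie farthest apart on the mutant pool 1 array in all 4 genes.

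The wider replication pathway was read from 68 more genes, among them other origin and polymerase subunits, E2F and retinoblastoma family genes, D cyclins and histone supply genes, of which 67 were measured. None of the 67 passed the test, and the median difference was -0.04, with 29 means higher and 38 lower. At an unadjusted p under 0.05 in limma 0 were higher and 3 lower (Rnaseh2b, Shmt1 and Ccnd1), where 4.46% of all genes were higher and 2.78% lower. Groups did not overlap with the mutant higher for 6 genes (8.96%: Donson, Prim2, Chtf18, Dscc1, Ccnd3 and Asf1b) and with the mutant lower for the same 3 (4.48%), beside 8.6% and 5.86% of all genes. In the pool 1 pair 21 of 67 were under -0.5 (31.3%), where 11.9% of all genes were, and in the other pairs 0 were. The pair medians were -0.13, 0.03 and -0.03. Ccnd1, the cyclin D that starts inactivation of the retinoblastoma proteins, read 0.06, 0.02, -0.02 and 0.03 on the wildtype arrays and -0.59, -0.28, -0.28 and -0.26 on the mutant arrays. All mutant arrays lay below all wildtype arrays, with a difference of -0.41 ± 0.12 (SE, n = 3, limma adjusted p = 0.464), a 95% interval of -0.68 to -0.13, and -0.30 without mutant pool 1. Shmt1, which feeds one-carbon units into thymidylate synthesis, differed by -0.47 ± 0.19 (SE, n = 3, limma adjusted p = 0.671). It was lower by pair differences of -0.90, -0.26 and -0.26. Slbp, which binds histone mRNA, had the largest difference, -0.50 ± 0.55 (SE, n = 3, limma adjusted p = 0.844), and it was 0.21 without mutant pool 1. By pair it was -1.65, 0.03 and 0.12. Cdk4, the kinase partner of D cyclins, and Rnaseh2c, a subunit of the enzyme that removes ribonucleotides from DNA, differed by -0.08 and 0.03.

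G2/M genes, which act after replication in mitosis, gave a second point of comparison. Of 39 genes 38 were measured, 0 passed the test, 0 had an unadjusted p under 0.05 in limma, and the median was -0.12. Pair medians were -0.27, -0.0070 and -0.02, and 13 of 38 (34.2%) were under -0.5 in the pool 1 pair, where 11.9% of all genes were. Hmmr, a spindle protein, differed by -0.38 ± 0.27 (SE, n = 3, limma adjusted p = 0.816), Top2a, the topoisomerase that untangles sister chromatids, by -0.34 ± 0.40 (SE, n = 3, limma adjusted p = 0.848), and Nuf2, a kinetochore protein, by -0.34 ± 0.31 (SE, n = 3, limma adjusted p = 0.824). Without mutant pool 1, but with wildtype pool 1, these 3 were at -0.05, 0.16 and 0.04. In the pool 2 pair and the pair of pools 3 and 4, Hmmr differed by -0.10 and -0.10. Top2a differed there by 0.08 and 0.01, and Nuf2 by -0.04 and -0.02. Birc5 and Incenp, both of the chromosomal passenger complex, differed by -0.02 and 0.09. Of the replication genes 14.6% were under -0.5 in the pool 1 pair, near the share of all genes. The difference between the lists was not tested.

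Markers of the sorted cells and of other cell types that a sort could hold were read beside these results. Nephron progenitor markers were lower in the mutant mean for 8 of 10 genes and lower in all 3 pairs for 6, with a median difference of -0.23. Their median ratio ranged from -0.02 to 0.18 in wildtype samples and from -0.39 to 0.05 in mutant samples. Beside Cited1, the groups of Uncx (-0.82) and Wt1 (-0.37) did not overlap with the mutant lower. Proximal tubule markers were lower in the mutant mean for 6 of 6 genes, with a median difference of -1.48, and their median ratio ranged from -1.44 to 0.84 in wildtype samples and from -2.83 to -0.72 in mutant samples. Stromal markers were higher for 8 of 8 genes, with a median of 0.24 (medians per sample of -0.12 to 0.14 and 0.01 to 0.55), and ureteric bud markers for 5 of 7, with a median of 0.22 (-0.27 to -0.03 and -0.10 to 0.34). Endothelial markers were higher for 3 of 6, with a median of 0.07 (-0.17 to 0.13 and -0.08 to 0.33). Of the lists of other cell types 0 genes passed the test in limma, each marker exceeded background on at least 7 arrays, and 2 proximal tubule genes passed with the pair as a block. Erythroid and leukocyte markers had medians of 0.03 (4 genes) and 0.01 (5 genes). The leukocyte markers did not read alike, with 3 higher and 2 lower in the mutant mean. Among them Cd74 differed by -0.61 (limma adjusted p = 0.134), and its groups did not overlap, as for 5.86% of all genes with the mutant lower. The part of these shifts in the replication gene values was not tested.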

How the data were processed

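Per the labels, 8 two-colour Agilent arrays each compared 1 pool (Cy5, 0.5 µg of total RNA) with RNA of wildtype pool 1 (Cy3). Spot brightness in the deposited scanner files is a linear intensity, made with Agilent Feature Extraction 10.7.3.1 per the submitters' processing notes. A value table, also deposited, holds log10 ratios of Cy5 over Cy3 and served as an alternative.

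Median spot signals were background-corrected in limma 3.58.1 (R 4.3.3; normexp, offset 50), followed by a loess fit per array in which control and outlier spots had no weight. The design had named mean signals; median signals were used. Repeated spots of a probe were averaged. A probe had to exceed background in Cy5 on 3 or more of a group's 4 arrays (30364 of 55681). Accessions matched to a RefSeq table (GRCm38.p6) named 27509 probes with 20887 symbols, and the brightest probe per gene gave 22662 genes, 334 of which lacked a value in at least 1 sample. No member had a missing or imputed sample. Precision is limited by the number of arrays.

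Between arrays, Cy3 levels of the same RNA differed by 0.0675 to 0.116 (log2, 5807 probes, without wildtype pool 2). The measure, for Cy5 as well, is the median absolute deviation of the difference between arrays about its median, scaled to an SD. Cy5 of pools 3 and 4 differed by 0.0838 (wildtype) and 0.0896 (mutant), and other Cy5 pairs by 0.163 to 0.525. The largest of these were the pairs with mutant pool 1, at 0.441 to 0.525. Pools 3 and 4 were therefore averaged to 1 sample and 3 samples per group were compared, where the design had 4. Same-numbered samples deviated together (r = 0.495, 0.543 and 0.527, other numbers -0.454 to -0.0777), from which, and not from a label, the pairing was taken. Deviations were from means of 3 samples, so positive values for equal numbers push those for other numbers below 0. The blocked p-values from limma rest on the same data from which the pairing was chosen. All arrays lie on 1 slide; mutant arrays fill one row and wildtype arrays the other, and the effect of row cannot be told apart from that of group.

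The test was limma (lmFit, eBayes, two-sided) with Benjamini-Hochberg adjustment over all genes, at a threshold of 0.05. The fit was tested on simulated data. An exact permutation test of 3 against 3 cannot give a p below 0.1. Values in all arrays are given, in each role, for the gene with the highest mean Cy5 level and that with the largest difference, and for E2f1, Ccne1, Cdt1, Cdc6, Pcna, Mcm2 and Rrm2; for the other lists, the 3 largest differences and the 2 brightest genes are named, and the array values of Cdc45 and the names of genes whose groups did not overlap were added after they were seen. The members and gene lists were chosen with earlier results of these data known. The 26 alternatives concerned background, normalization, filters, probes, samples and the pair as a block.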

Additional observations from a re-analysis of the deposited data

How the results depend on the processing

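No replication gene passed an adjusted p under 0.05 in limma under any of the 26 alternatives, and the lowest was 0.283. The log2 differences of 11 of 41 genes kept 1 sign in all 26: Cdc6 (0.06 to 0.45), Chaf1b (0.07 to 0.37), Ccne1 (0.09 to 0.31) and E2f1 (0.15 to 0.47) above 0, and 7 below it. Their median was -0.05 with all samples, 0.04 without mutant pool 1, 0.0119 with Cy5 alone (where the median of all genes was 0.128, and 22 genes were higher and 19 lower) and 0.0631 without both wildtype pool 2 and mutant pool 1, an alternative chosen after seeing the data. Centred on spike-ins, where the median of all genes was -0.151, the medians were -0.205 for the replication genes, -0.198 for the wider pathway and -0.272 for G2/M genes (-0.213 to 0.0036 with a replicate left out), and 4 replication genes were higher and 37 lower. The G2/M median was 0.0351 without wildtype pool 2 and mutant pool 1. Of 1066 values of single genes 51 moved by more than the SD between samples within groups. That SD includes mutant pool 1 and is wide for genes such as Gins2, whose change of sign without that array did not count as moved. The 1066 also include settings that leave a difference as it was. Without mutant pool 1, 17 genes changed sign, and 16 did in the blocked fit without the pair of pool 1.

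The count of all genes called, 10 with the main settings, was 34 with the replicate block and 257 with the 8 arrays as separate samples. It was 1 to 10 with a replicate left out, 0 with the block and without the pair of pool 1, 47 without that of pool 2 and 0 without that of pools 3 and 4. It was 1 with Cy5 alone, 6 centred on spike-ins and 5 with trend and robust variance. The pairing block changed no call of a replication gene. The median SE of a replication gene was 0.113 on the log2 scale, which limits the differences that 3 samples per group can show.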
